A study of Mus musculus with 6 samples.

Results

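The genes described here are the immunoglobulin variable (V) segments read in splenic monocyte libraries. They were chosen by symbol, annotation and measured counts: every gene whose mouse symbol starts with Ighv, Igkv or Iglv, that is annotated as a functional V segment, and that had 20 or more counts summed over 6 libraries. Of the 216 annotated V segments among 55421 genes, 159 met this rule, comprising 81 of 113 heavy chain segments (Ighv), 75 of 100 kappa segments (Igkv) and all 3 lambda segments (Iglv). The sum was taken over both genotypes, so genotype did not enter the choice, but 19 members had fewer than 20 counts in one genotype, IL-4Rα+/+, and reached 20 only with IL-4Rα-/-, 12 did so in the opposite direction, and 4 reached 20 only when both were added. The members held 67667 counts. The 57 segments left out held 203 counts, and 21 of them had none. Just outside the limit were Igkv8-16, with 16 counts, and Igkv9-123, with 17, and just inside were Igkv12-38, with 24, and Igkv4-54, with 26.

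RNA-seq was performed on monocytes isolated from spleen by negative selection, in 3 mice with intact IL-4Rα (IL-4Rα+/+) and 3 mice lacking IL-4Rα in the whole body (IL-4Rα-/-), all on the C57BL/6 background. The animals were littermates, and each mouse gave 1 library, named here by genotype and replicate number. IL-4Rα is the receptor chain shared by interleukin-4 and interleukin-13. The labels give no age for these mice, and the methods of the study describe all its animals as used in adulthood. Total counts on genes ran from 26807281 to 29033297 per library, so that 1 count corresponded to 0.0338 to 0.0377 CPM, counts per 1000000 counts on genes after TMM scaling of the library sizes. Il4ra itself was at 137, 128 and 177 CPM in IL-4Rα+/+ and at 27.9, 79.4 and 31.8 CPM in IL-4Rα-/-, lower in each IL-4Rα-/- library but not at 0. The monocyte markers were abundant in every library, with Csf1r, the receptor for colony stimulating factor 1, at 2225 to 3092 CPM.

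A V segment encodes most of the variable domain of an antibody chain. In a developing B cell 1 V segment of the heavy chain locus is joined to D and J segments, and 1 of the kappa or lambda locus to a J segment, and the joined gene is then transcribed with a constant region. Each B cell clone therefore carries its own V segments, and plasma cells, which secrete antibody, hold far more of this RNA per cell than resting B cells. Monocytes do not belong to the lineage that rearranges these loci.

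Because V segments arose by duplication, some are nearly identical, and a short read can be assigned to a segment only where its bases are particular to it. The coding sequences printed here are those of segments described below, each with another segment of the same family. They are the last 290 bases of each V exon in the GENCODE M21 annotation of GRCm38, and capitals mark the bases at which the pair differ. Iglv1 (chr16:19085017-19085306, minus strand) and Iglv2 (chr16:19260401-19260690, minus strand), which together held most of the lambda counts, were identical at 97.0% of 305 aligned bases and differed at 7 of those shown:
Iglv1: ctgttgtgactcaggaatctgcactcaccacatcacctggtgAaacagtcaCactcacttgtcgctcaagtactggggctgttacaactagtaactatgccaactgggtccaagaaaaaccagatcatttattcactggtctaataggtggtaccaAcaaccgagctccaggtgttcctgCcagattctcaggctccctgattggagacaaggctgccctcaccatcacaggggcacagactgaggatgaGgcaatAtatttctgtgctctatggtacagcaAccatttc
Iglv2: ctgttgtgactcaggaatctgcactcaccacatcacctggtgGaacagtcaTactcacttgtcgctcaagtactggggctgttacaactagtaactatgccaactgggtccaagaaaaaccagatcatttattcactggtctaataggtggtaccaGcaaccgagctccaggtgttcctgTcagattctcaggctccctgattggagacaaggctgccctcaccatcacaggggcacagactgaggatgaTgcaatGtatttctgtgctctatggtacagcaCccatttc

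Igkv6-14 (chr6:70434952-70435241, minus strand), a segment with no count in any IL-4Rα+/+ library, and Igkv6-23 (chr6:70260409-70260698, minus strand) shared 94.0% of bases and differed at 17 of those shown, several of them near the 3′ end, which encodes the start of the third complementarity determining region:
Igkv6-14: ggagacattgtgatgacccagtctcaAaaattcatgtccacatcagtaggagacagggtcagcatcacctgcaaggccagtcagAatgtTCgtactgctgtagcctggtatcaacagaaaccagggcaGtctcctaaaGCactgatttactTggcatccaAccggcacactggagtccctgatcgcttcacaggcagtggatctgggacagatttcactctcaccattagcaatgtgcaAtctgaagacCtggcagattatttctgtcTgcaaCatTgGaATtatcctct
Igkv6-23: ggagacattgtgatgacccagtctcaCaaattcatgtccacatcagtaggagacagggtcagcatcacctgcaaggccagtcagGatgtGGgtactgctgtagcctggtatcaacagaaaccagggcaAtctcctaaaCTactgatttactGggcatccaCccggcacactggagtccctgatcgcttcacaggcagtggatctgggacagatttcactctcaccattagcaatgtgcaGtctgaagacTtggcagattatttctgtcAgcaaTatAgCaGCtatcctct

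Ighv1-76 (chr12:115847881-115848170, minus strand), the heavy segment with the smallest DESeq2 p-value, and Ighv1-77 (chr12:115861867-115862156, minus strand) shared 95.1% of bases and differed at 14 of those shown:
Ighv1-76: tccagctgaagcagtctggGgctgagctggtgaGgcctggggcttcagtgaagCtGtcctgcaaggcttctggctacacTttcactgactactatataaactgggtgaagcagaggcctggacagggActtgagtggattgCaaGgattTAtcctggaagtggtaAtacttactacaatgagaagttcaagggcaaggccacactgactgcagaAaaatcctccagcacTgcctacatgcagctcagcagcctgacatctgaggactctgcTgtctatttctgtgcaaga
Ighv1-77: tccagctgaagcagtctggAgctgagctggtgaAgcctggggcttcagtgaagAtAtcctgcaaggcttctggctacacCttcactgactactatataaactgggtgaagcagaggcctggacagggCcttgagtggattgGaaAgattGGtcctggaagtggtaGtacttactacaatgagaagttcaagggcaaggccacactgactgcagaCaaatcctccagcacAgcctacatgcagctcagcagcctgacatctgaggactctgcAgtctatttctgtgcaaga

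Igkv1-88 (chr6:68862265-68862554, minus strand), the member with the smallest unadjusted edgeR p among those lower in IL-4Rα-/-, and Igkv1-110 (chr6:68270978-68271267, plus strand) shared 85.3% of bases and differed at 43 of those shown:
Igkv1-88: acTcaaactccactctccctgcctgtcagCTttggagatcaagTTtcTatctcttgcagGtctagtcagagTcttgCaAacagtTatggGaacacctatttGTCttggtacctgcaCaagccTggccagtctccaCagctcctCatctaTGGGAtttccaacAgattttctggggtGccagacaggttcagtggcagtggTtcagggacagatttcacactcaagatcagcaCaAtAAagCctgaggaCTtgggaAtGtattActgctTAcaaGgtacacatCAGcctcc
Igkv1-110: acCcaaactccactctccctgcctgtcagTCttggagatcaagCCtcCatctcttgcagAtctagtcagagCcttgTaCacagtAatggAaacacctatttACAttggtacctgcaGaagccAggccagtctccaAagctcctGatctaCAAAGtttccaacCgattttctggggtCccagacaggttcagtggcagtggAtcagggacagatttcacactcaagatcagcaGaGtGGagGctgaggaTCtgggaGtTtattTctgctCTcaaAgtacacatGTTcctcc

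When every 75-base window of a member's transcripts was compared with all annotated transcripts, all windows were particular to the segment in 53 members. The median member had 93.2% such windows. Ighv1-72, with 28.3%, and Igkv6-20, with 40.5%, were the members under 50%. The nearest other V exon was identical at 95% or more of bases for 83 members. Reads placed at several sites were not counted on genes, so segments that share windows with others can be undercounted. The division of counts between relatives is uncertain as well, and somatic mutation, which changes V bases in antigen-experienced B cells, was not measured.

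In total, V segments took 0.0279%, 0.0406% and 0.0324% of counts in IL-4Rα+/+ and 0.0529%, 0.0507% and 0.0361% in IL-4Rα-/-. Normalised to library size, the summed heavy V level was 108, 166 and 137 CPM in IL-4Rα+/+ and 224, 212 and 142 CPM in IL-4Rα-/-, or 137 ± 29.2 against 193 ± 44.7 (mean ± SD, n = 3 mice per genotype here and throughout). IL-4Rα-/- 3 lay below IL-4Rα+/+ 2, so the genotypes overlapped. The summed kappa level was 164, 212 and 163 CPM in IL-4Rα+/+ and 258, 268 and 163 CPM in IL-4Rα-/- (180 ± 28.2 against 230 ± 58.0). Here IL-4Rα-/- 3 was level with the lowest IL-4Rα+/+ library.

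The lambda locus is small in the mouse. Its summed level was 10.9, 28.4 and 27.9 CPM in IL-4Rα+/+ and 37.6, 34.9 and 47.1 CPM in IL-4Rα-/-, or 22.4 ± 9.94 against 39.9 ± 6.41. Every IL-4Rα-/- library was above every IL-4Rα+/+ library, by a log2 ratio of means of 0.83, against 0.50 for heavy and 0.35 for kappa segments. IL-4Rα+/+ 1 stood far below the others of its genotype, and without it the lambda log2 ratio was 0.50. Lambda made up 6.25%, 11.8% and 14.6% of the light chain V level in IL-4Rα+/+ and 12.7%, 11.5% and 22.5% in IL-4Rα-/-, and these shares overlapped. In bulk RNA, a change in the number of cells of a type and a change in RNA per cell cannot be told apart.

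**Figure D1:**
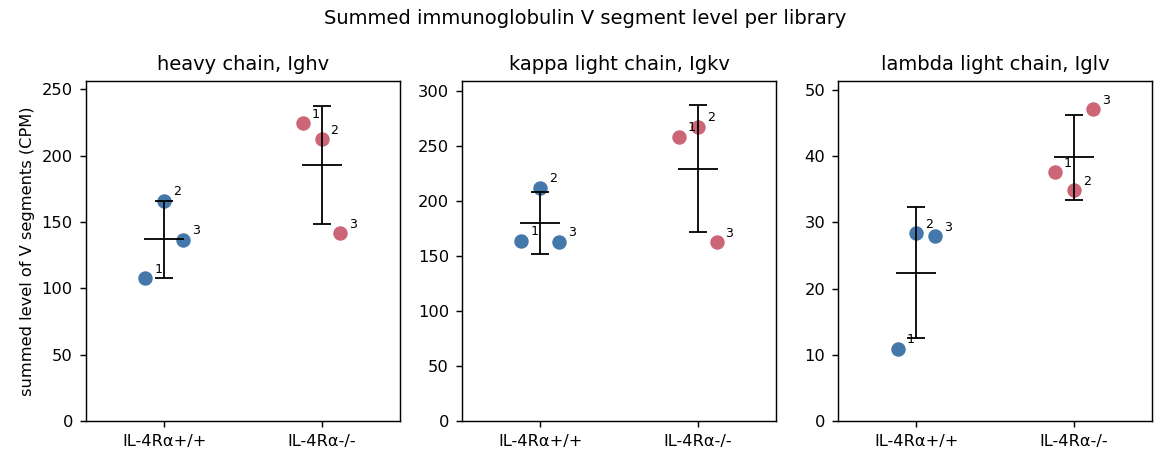
Summed V segment level per library in CPM for the heavy, kappa and lambda loci. Points are libraries numbered by replicate, the horizontal line is the mean and the whiskers are 1 SD of 3 mice. The lambda panel is the one in which the genotypes do not overlap, with 34.9 CPM as the lowest IL-4Rα-/- value and 28.4 CPM as the highest IL-4Rα+/+ value.

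The V level was set beside genes that mark the cells known to make antibody. Jchain, which encodes the chain joining IgA dimers and IgM pentamers and is a plasma cell gene, was at 103, 132 and 101 CPM in IL-4Rα+/+ and 188, 171 and 120 CPM in IL-4Rα-/-. The ratio of V level to Jchain was 2.74, 3.08 and 3.23 in IL-4Rα+/+ and 2.77, 3.02 and 2.94 in IL-4Rα-/-, so the libraries highest in V segments were also highest in Jchain. Other plasma cell genes listed did not all go this way. Derl3, Pou2af1, Mzb1, Xbp1 and Ell2 had log2 fold changes of 0.69, 0.68, 0.19, 0.15 and 0.01. Those of Sdc1, Irf4, Prdm1 and Txndc5 were −0.32, −0.18, −0.08 and −0.03, and the median over the list was 0.08. Sdc1 was highest in IL-4Rα+/+ 1, the library lowest in V segments. A list of 9 B cell genes, among them Ms4a1 and Pax5, which plasma cells largely lose, summed to 60.7, 108 and 40.5 CPM in IL-4Rα+/+ and 57.1, 35.4 and 173 CPM in IL-4Rα-/-. This sum was highest in IL-4Rα-/- 3 and IL-4Rα+/+ 2, whereas V segments were highest in IL-4Rα-/- 1 and 2. In IL-4Rα-/- 2 the B cell sum came mostly from Cd22 and Cd79b, at 15.68 and 13.19 CPM. Between IL-4Rα-/- 2 and 3 single genes differed more than the sum, with Ms4a1 at 1.015 and 21.25 CPM and Pax5 at 0.805 and 12.84 CPM.

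**Figure D2:**
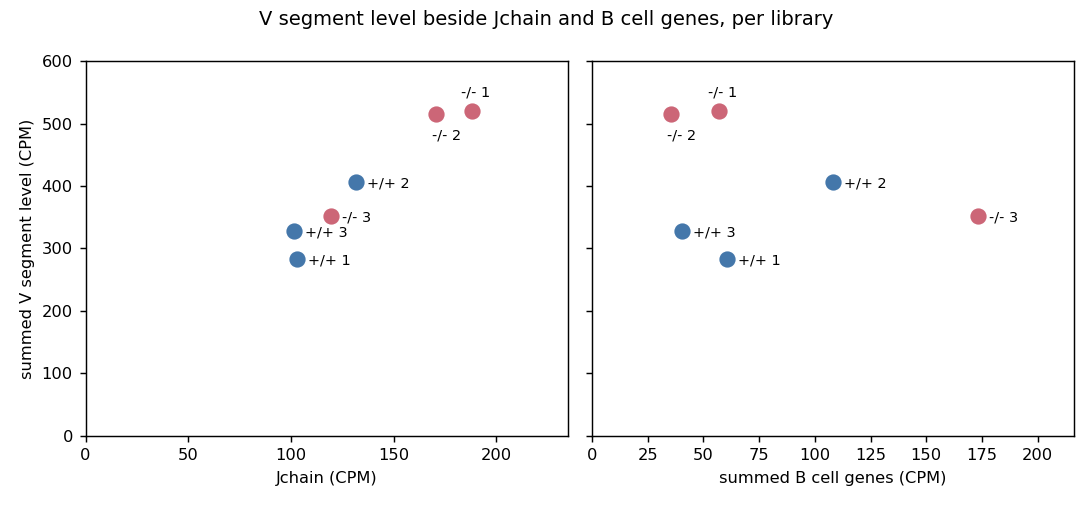
Summed V segment level against Jchain on the left and the summed level of 9 B cell genes on the right, in CPM, 1 point per library with genotype and replicate number. The libraries run from low Jchain and low V level (103 and 282 CPM in IL-4Rα+/+ 1) to high Jchain and high V level (188 and 520 CPM in IL-4Rα-/- 1), while the library highest in B cell genes, at 173 CPM, has a V level of 352 CPM.

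The constant regions to which V segments are spliced were compared in the same way. Igkc, the kappa constant region, was at 301, 385 and 287 CPM in IL-4Rα+/+ and 480, 523 and 290 CPM in IL-4Rα-/-. Kappa V level per Igkc was 0.544, 0.551 and 0.566 in IL-4Rα+/+ and 0.539, 0.512 and 0.560 in IL-4Rα-/-, a narrow range in which the genotypes overlapped. For the heavy chain, V level per unit of summed constant genes was 0.135, 0.158 and 0.160 in IL-4Rα+/+ and 0.170, 0.172 and 0.143 in IL-4Rα-/-, also overlapping.

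Of the 13 constant genes listed, 11 could be tested and none passed an adjusted p of 0.15 with edgeR's quasi-likelihood test, whereas Igha and Iglc1 had an unadjusted p under 0.05. Igha, the IgA heavy chain, was at 245, 231 and 268 CPM in IL-4Rα+/+ and 694, 568 and 438 CPM in IL-4Rα-/-, with no overlap (log2 fold change 1.19 ± 0.17 SE, DESeq2 adjusted p = 2.90e-06). Ighm, the IgM heavy chain, was at 455, 715 and 524 CPM in IL-4Rα+/+ and 555, 514 and 476 CPM in IL-4Rα-/-, overlapping (−0.13 ± 0.17). The 4 lambda constant genes together were at 15.5, 46.7 and 40.4 CPM in IL-4Rα+/+ and 55.7, 50.01 and 76.1 CPM in IL-4Rα-/-, with no overlap, as for the lambda V segments.

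Other cell type markers also moved between the libraries. All 6 erythroid genes listed had an unadjusted p under 0.05, all higher in IL-4Rα-/-, against 3.72% of all genes tested in that direction. Their summed level was 52.9 to 127 CPM in IL-4Rα+/+ and 160 to 394 CPM in IL-4Rα-/-. The 6 neutrophil genes summed to 15.9 to 77.9 CPM in IL-4Rα+/+ and 63.0 to 305 CPM in IL-4Rα-/-, with 3 of 6 past that p. The B cell list (9 genes) ran from 40.5 to 108 CPM in IL-4Rα+/+ and from 35.4 to 173 CPM in IL-4Rα-/-, with none past it. The plasma cell list (11 genes, 10 tested) ran from 688 to 793 CPM and from 688 to 972 CPM, with Jchain alone past it, but Xbp1 and Txndc5, which contribute much of that sum, are expressed by many cell types. The T cell list (6 genes) ran from 41.6 to 104 CPM and from 38.1 to 92.2 CPM, with none past it. Pancreatic acinar genes summed to 280 CPM in IL-4Rα-/- 2 and to between 10.4 and 42.7 CPM in the other libraries, with Cela1 alone of 7 tested past it, and 1 of the 8 listed, Amy2a5, at or under 3 counts in each library. The part of these cell types in the V segment levels was not tested.

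The genes that rearrange V segments were near the limit of detection. Rag1 and Rag2, the recombinase, had at most 5 and 3 counts in any library, Igll1, part of the surrogate light chain of precursor B cells, had at most 1, and Vpreb2 had none. Of the 9 genes listed for recombination, the surrogate light chain and mutation, only Ung passed the filter on low counts, and its unadjusted p did not pass 0.05. Of Pou2f1, Pou2f2 and Pou2af1, the octamer-binding factors and coactivator that act at V promoters, none passed an unadjusted p of 0.05.

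Within each locus, the segments in use differed from mouse to mouse. The leading heavy segment was Ighv1-82 in IL-4Rα+/+ 1, at 10.5% of the heavy V level, and Ighv7-1 in IL-4Rα+/+ 2 and 3, at 13.6% and 8.91%. In IL-4Rα-/- the leaders were Ighv1-64 at 16.8%, Ighv1-26 at 13.9% and Ighv1-80 at 11.8%. For kappa, Igkv6-15 led in IL-4Rα+/+ 1 at 10.3% and Igkv15-103 in IL-4Rα+/+ 2 and 3 at 13.7% and 9.43%. Igkv4-74 at 8.83%, Igkv8-27 at 8.49% and Igkv16-104 at 5.42% led in the 3 IL-4Rα-/- libraries. Thus 5 different segments led in 6 libraries at each locus.

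The shared usage of a pair of libraries, taken as the sum over segments of the smaller of both shares, was 42.0% to 62.3% among IL-4Rα+/+ libraries, 50% to 57% among IL-4Rα-/- libraries and 45.8% to 67.0% between genotypes for heavy segments. For kappa it was 46.7% to 62.4%, 59.1% to 60.5% and 46.4% to 68.3%. Pairs of the same genotype were thus not set apart from pairs of different genotype.

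How evenly the segments were used was summarised by the effective number of segments, the number of equally used segments that would give the same entropy. It was 34.3, 31.2 and 38.1 for heavy segments in IL-4Rα+/+ and 32.8, 35.2 and 37.4 in IL-4Rα-/-. For kappa it was 29.9, 35.7 and 33.0 in IL-4Rα+/+ and 40.3, 35.5 and 42.4 in IL-4Rα-/-. The kappa means differed by 6.53 segments, but IL-4Rα-/- 2 was just below IL-4Rα+/+ 2. The 10 leading kappa segments held 64.5%, 50.9% and 58.5% of the kappa level in IL-4Rα+/+ and 48.9%, 52.0% and 42.2% in IL-4Rα-/-. For heavy segments these shares were 53.8%, 60.1% and 52.1% against 55.3%, 55.4% and 48.8%.

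Many members drew most of their counts from 1 mouse. Of the 115 members with 100 or more counts, 29 (25.2%) had over 50% of their counts in a single library, against 1.31% of 5725 other genes with between 100 and 3464 counts. Over 60% lay in 1 library for 11 members. Igkv12-98 was the most concentrated of these, with 2, 24 and 0 counts in IL-4Rα+/+ and 183, 1 and 1 in IL-4Rα-/-. Ighv1-4 had 14, 7 and 0 counts in IL-4Rα+/+ and 24, 221 and 1 in IL-4Rα-/-. Igkv3-1 had 8, 2 and 0 counts in IL-4Rα+/+ and 165, 24 and 5 in IL-4Rα-/-. In these 3 segments a single IL-4Rα-/- mouse supplied 80.9% to 86.7% of the counts.

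The same held in lesser degree for other segments, and not in the IL-4Rα-/- mice alone. Ighv9-1 had 4, 0 and 0 counts in IL-4Rα+/+ and 43, 2 and 111 in IL-4Rα-/-. Igkv4-80 had 9, 4 and 63 counts in IL-4Rα+/+ and 9, 159 and 1 in IL-4Rα-/-. Ighv13-2 had 3, 65 and 9 counts in IL-4Rα+/+ and 3, 0 and 21 in IL-4Rα-/-, with IL-4Rα+/+ 2 holding 64.4%. Outside the naming rule, and picked after its values were seen, Igkv5-37 had 0, 3 and 47 counts in IL-4Rα+/+ and none in IL-4Rα-/-.

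**Figure D3:**
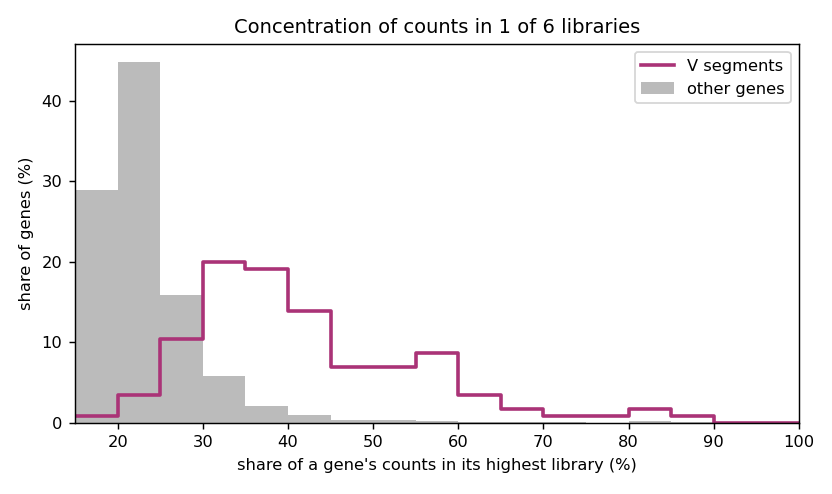
Share of a gene's counts that lay in its highest library, in percent, for 115 V segments (line) and 5725 other genes of like total counts (bars), as percent of each set in bins of 5 points. V segments spread out to the right, with 25.2% above 50% against 1.31% of the other genes.

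Spread between mice of 1 genotype was correspondingly wide. The median coefficient of variation was 80.4% in IL-4Rα+/+ and 76.3% in IL-4Rα-/- over 108 members with a mean of 0.585 to 9.46 CPM, against 25.1% and 22.2% over 4262 other genes in that range of level. The most abundant segments showed the same. Ighv1-64 had 94, 264 and 322 counts in IL-4Rα+/+ and 1054, 470 and 76 in IL-4Rα-/-, Ighv1-26 had 310, 95 and 101 against 69, 844 and 194, and Ighv7-1 had 86, 622 and 323 against 217, 189 and 45. Their log2 fold changes, 1.18 ± 0.89, 1.09 ± 0.91 and −1.25 ± 0.81 (SE), did not pass the test. That of Ighv1-64 was 0.19 without IL-4Rα-/- 1, and that of Ighv7-1 was −0.52 without IL-4Rα+/+ 2. Ighv6-3 was steadier, at 243, 226 and 224 counts in IL-4Rα+/+ and 290, 219 and 108 in IL-4Rα-/- (−0.22 ± 0.35), and Ighv10-1 had 68, 400 and 90 against 252, 254 and 155 (0.19 ± 0.67).

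The abundant kappa segments overlapped between genotypes as well. Igkv15-103 had 144, 803 and 407 counts in IL-4Rα+/+ and 418, 232 and 182 in IL-4Rα-/- (log2 fold change −0.76 ± 0.62, and −0.07 without IL-4Rα+/+ 2). Igkv1-117 had 284, 332 and 387 against 356, 232 and 229 (−0.36 ± 0.24), the most even of the 5 over the libraries. Igkv10-96 had 278, 229 and 145 against 414, 327 and 198 (0.48 ± 0.34). Igkv8-27, with 297, 167 and 69 against 82, 649 and 238 (0.82 ± 0.78), and Igkv16-104, with 33, 347 and 161 against 358, 287 and 261 (0.68 ± 0.70, and 0.18 without IL-4Rα+/+ 1), varied more. Per kilobase of exon and averaged over the 6 libraries, the highest levels were those of Iglv1 at 52.2, Igkv15-103 at 34.9, Ighv1-64 at 33.6 and Ighv1-26 and Igkv1-117 at 26.9 CPM per kilobase, and among these only Iglv1 kept the genotypes apart.

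**Figure D4:**
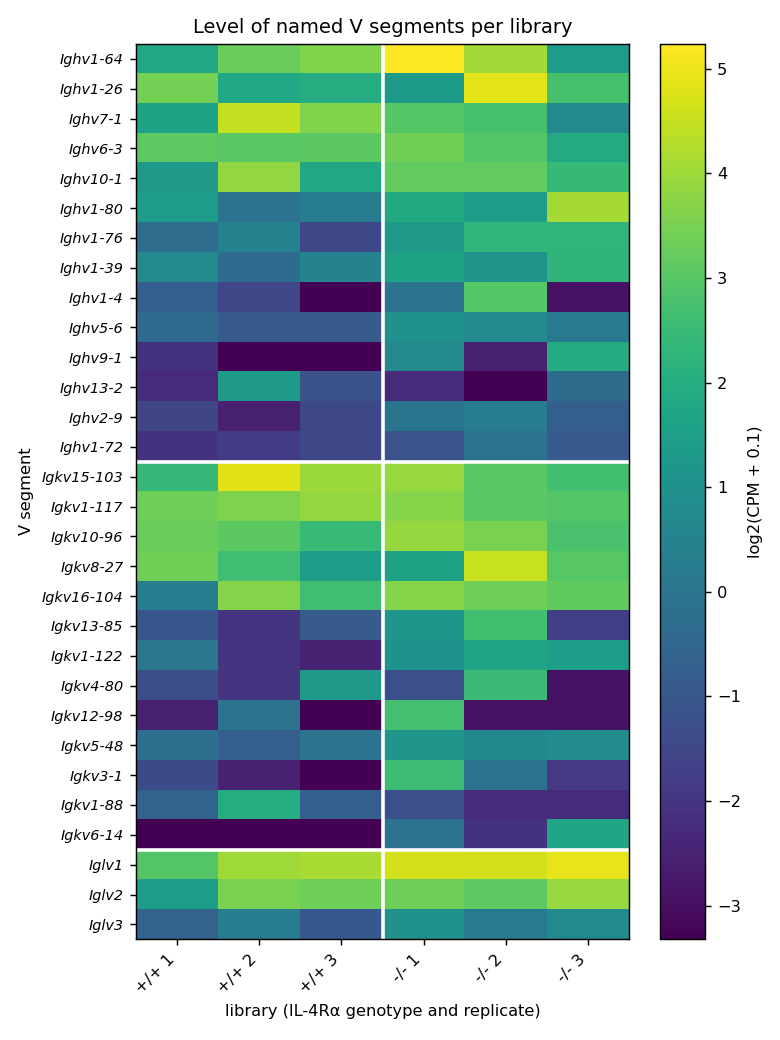
Level of 30 named V segments in each library as log2(CPM + 0.1), rows ordered by mean level within the heavy, kappa and lambda loci and libraries ordered by genotype and replicate. Most rows change from library to library within a genotype, while Iglv1 is at 7.65 to 17.5 CPM in the IL-4Rα+/+ columns and at 25.3 to 30.4 CPM in the IL-4Rα-/- columns.

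The comparison of IL-4Rα-/- with IL-4Rα+/+ was then made segment by segment. After a filter on low counts 122 of the 159 members could be tested with edgeR, and none passed an adjusted p of 0.15, the threshold of the study, over 13849 genes (background 0%). The smallest adjusted p among members was 0.618. This was also the smallest over all genes tested, so the fit called no gene, inside or outside the V segments. At an unadjusted p under 0.05, 14 members were higher in IL-4Rα-/- and 1, Igkv1-88, was lower, against 3.72% and 4.37% of all genes tested. This split rests on the fit: the higher and lower members were 12 to 24 and 4 to 5 when 1 library was left out, 28 and 7 with no filter on low counts, and 30 and 6 with DESeq2. The genotypes did not overlap for 12 tested members in the higher direction (9.84%) and for 1 in the lower (0.82%), where the background was 7.63% and 7.87%, so the share of higher members was near the background. Over all members, also those not tested, the genotypes did not overlap for 15 higher and 2 lower, a count that the choice of members fixes in part. Of the higher, Igkv6-14, Ighv14-1, Ighv1-85, Ighv2-9, Ighv1-72 and Igkv12-41 had fewer than 20 counts in IL-4Rα+/+, and both lower ones had fewer than 20 in IL-4Rα-/-. Those not tested were Igkv6-14, Ighv1-85 and Ighv14-1 among the higher, and Ighv1-47, with 10, 31 and 22 counts in IL-4Rα+/+ and 0, 2 and 8 in IL-4Rα-/-, among the lower, the last 3 of which were named after their values were seen. The median log2 fold change over tested members was 0.51, with 81 above 0 and 41 below, beside a median of 0.01 over all genes. Without IL-4Rα+/+ 2 this median was 0.89, and without IL-4Rα-/- 1 it was 0.28.

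A fit with DESeq2, the tool of the study, called 4 members higher and 1 lower at an adjusted p of 0.15, out of 141 members with an adjusted p. The background of DESeq2 calls was 0.256% higher and 0.283% lower over 14472 genes. The 5 segments were Igkv6-14, Ighv1-76, Igkv1-122, Ighv1-80 and Igkv1-88. Of these, Igkv6-14 and Igkv1-88 reached the count limit for members in a single genotype only. The background is therefore not a like one for the calls of Igkv6-14 and Igkv1-88. The values of all 5 segments by mouse follow.

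Igkv6-14 had no count in IL-4Rα+/+ and 24, 4 and 93 counts in IL-4Rα-/-, so that 76.9% of its counts were in IL-4Rα-/- 3. It met the limit of 20 counts through IL-4Rα-/- alone, so a member of this kind had to differ between the genotypes. Against a floor of 3 counts per library its mean level was at least 12.7-fold higher in IL-4Rα-/- (DESeq2 adjusted p = 0.00494), and it did not pass the filter for the edgeR test. Of its 75-base windows, 85.3% were found in no other transcript. Ighv1-76 had 21, 35 and 7 counts in IL-4Rα+/+ and 67, 138 and 139 in IL-4Rα-/- (0.756 ± 0.501 against 3.97 ± 1.37 CPM), the most even of the 5 across the IL-4Rα-/- mice together with Igkv1-122. Its log2 fold change was 2.39 ± 0.56 (SE), with an adjusted p of 0.618 by edgeR and 0.0115 by DESeq2, and all of its windows were particular to it.

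Igkv1-122 had 27, 4 and 2 counts in IL-4Rα+/+ and 55, 88 and 77 in IL-4Rα-/-, a log2 fold change of 2.68 ± 0.80 (adjusted p = 0.618 by edgeR and 0.101 by DESeq2). Without IL-4Rα+/+ 1 it was 4.47. Ighv1-80 had 73, 24 and 29 counts in IL-4Rα+/+ and 100, 74 and 494 in IL-4Rα-/- (2.33 ± 0.82, adjusted p = 0.618 by edgeR and 0.137 by DESeq2). IL-4Rα-/- 2 was just above IL-4Rα+/+ 1, and without IL-4Rα-/- 3 the log2 fold change was 1.03. Igkv1-88 had 16, 107 and 13 counts in IL-4Rα+/+ and 9, 3 and 3 in IL-4Rα-/- (−3.20 ± 1.02, adjusted p = 0.618 by edgeR and 0.133 by DESeq2). IL-4Rα+/+ 2 held 70.9% of the counts of Igkv1-88, and without it the log2 fold change was −1.57. Igkv1-88 met the count limit for members through IL-4Rα+/+ alone, so the choice of members fixes its direction in part.

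Other heavy and kappa segments with the smallest unadjusted p-values had low counts but little spread. Ighv5-6 had 19, 12 and 12 counts in IL-4Rα+/+ and 53, 47 and 30 in IL-4Rα-/- (log2 fold change 1.54 ± 0.36), and Igkv5-48 had 22, 14 and 23 against 59, 43 and 49 (1.29 ± 0.31). Ighv2-9 had 7, 2 and 7 counts against 25, 32 and 15 (2.09 ± 0.54), and Ighv1-39 had 44, 19 and 35 against 83, 59 and 136 (1.44 ± 0.42). These 4 segments did not overlap between genotypes, and their edgeR adjusted p was 0.618. Ighv1-72, with 4, 5 and 7 counts against 10, 23 and 13 (1.44 ± 0.48), shared most of its windows with other segments. By contrast, Igkv13-85, with 11, 4 and 12 counts against 60, 176 and 6 (3.10 ± 1.11), and Igkv4-74, with 29, 49 and 2 against 639, 406 and 3 (3.68), were high in IL-4Rα-/- 1 and 2 but not in IL-4Rα-/- 3. Igkv4-74 was singled out after its values were seen.

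Of the lambda segments, Iglv1 had 218, 441 and 463 counts in IL-4Rα+/+ and 720, 722 and 900 in IL-4Rα-/-, or 13.7 ± 5.28 against 27.1 ± 2.86 CPM. Every IL-4Rα-/- library exceeded every IL-4Rα+/+ library (log2 fold change 0.99 ± 0.29, adjusted p = 0.618 by edgeR and 0.162 by DESeq2), and neither test passed. Iglv2 had 77, 313 and 265 counts in IL-4Rα+/+ and 281, 244 and 448 in IL-4Rα-/-, overlapping (0.49 ± 0.51, and 0.08 without IL-4Rα+/+ 1). Iglv3 had 16, 31 and 11 counts in IL-4Rα+/+ and 53, 31 and 46 in IL-4Rα-/- (1.11 ± 0.44), with IL-4Rα+/+ 2 and IL-4Rα-/- 2 at near the same level.

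In the mouse lambda locus Iglv1 is joined mainly to the J segments beside Iglc1 and Iglc3, and Iglv2 mainly to that beside Iglc2. Iglc1 had 282, 465 and 611 counts in IL-4Rα+/+ and 892, 720 and 982 in IL-4Rα-/- (log2 fold change 0.86 ± 0.29), with no overlap. Iglc3 had 28, 211 and 87 counts against 89, 233 and 356 (0.97 ± 0.75), overlapping. Iglc2 had 131, 616 and 372 counts against 580, 475 and 910 (0.74 ± 0.53), overlapping. Of the windows of Iglv1 and Iglv2, whose sequences are shown above, 90.5% and 89.4% were particular to each.

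**Figure D5:**
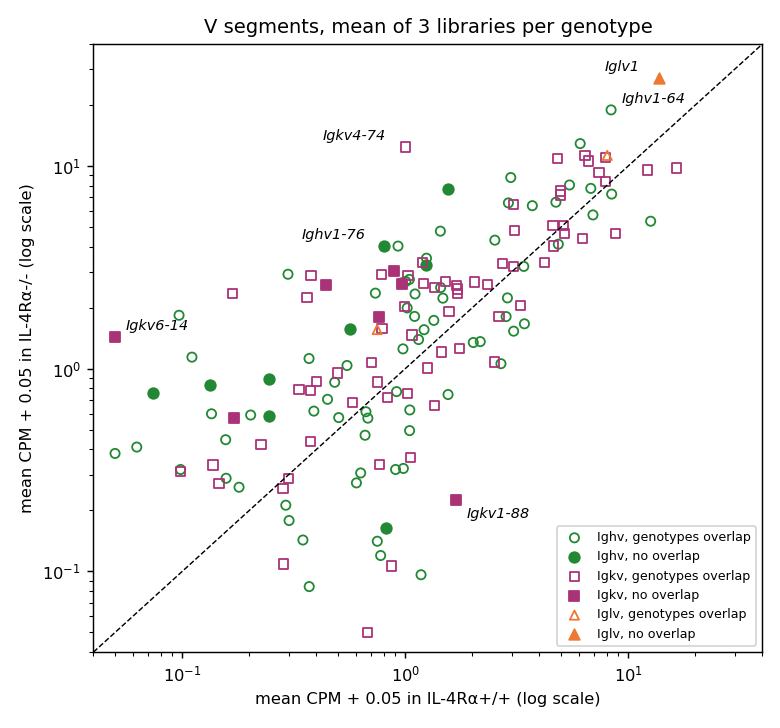
Mean level of each of the 159 V segments in IL-4Rα-/- against IL-4Rα+/+, as CPM + 0.05 on log axes, with 3 mice per genotype and the dashed line at equality. Filled symbols are the 17 members whose genotypes did not overlap, 15 of them higher and 2 lower in IL-4Rα-/-.

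Grouped by family, the summed level of the Ighv1 segments, the largest heavy chain family in the mouse, did not overlap between genotypes. Its 39 members summed to 63.3, 47.9 and 55.3 CPM in IL-4Rα+/+ and 108, 118 and 70.2 CPM in IL-4Rα-/- (55.5 ± 7.69 against 98.7 ± 25.1). In IL-4Rα-/- 3, Ighv1-80 alone gave 16.7 of the 70.2 CPM, against 2.56 CPM in IL-4Rα+/+ 1, so the separation depended on that segment. The sum also holds members that reached 20 counts in a single genotype, among them Ighv1-42 and Ighv1-85 in IL-4Rα-/- and Ighv1-47 in IL-4Rα+/+. The genotypes also did not overlap for Ighv2 (6 members, 3.95 ± 1.65 against 6.77 ± 0.551 CPM), Ighv9 (4 members, 1.90 ± 0.868 against 5.85 ± 1.66 CPM) and Igkv8 (6 members, 19.1 ± 1.22 against 27.6 ± 10.4 CPM). Ighv2-2 gave 5.07 of the 6.25 CPM of Ighv2 in IL-4Rα-/- 3, against 1.02 of 5.81 CPM in IL-4Rα+/+ 3. The separation of Ighv2 depended on that segment. For Ighv9, 3.75 of the 4.60 CPM in IL-4Rα-/- 3 came from Ighv9-1, which reached 20 counts only with IL-4Rα-/-. In IL-4Rα-/- 2, Ighv9-3 gave 7.60 of 7.74 CPM, so the separation of Ighv9 rests on single segments. Igkv8 was at 17.8, 19.5 and 20.1 CPM in IL-4Rα+/+ and at 21.8, 39.6 and 21.4 CPM in IL-4Rα-/-, so that IL-4Rα-/- 2 alone stood well above the rest. All of these families were higher in IL-4Rα-/-. Of all single genes tested, 7.63% were higher without overlap, but that share is not a like background for sums over members. No such share was taken for sums over other sets of genes. The other heavy and kappa families overlapped, including Igkv4, with 19 members the largest kappa family here, at 20.99, 30.8 and 26.6 CPM against 61.8, 40.6 and 25.8 CPM. Ighv5, whose members lie near the D segments, was at 11.8 ± 1.55 against 13.6 ± 2.98 CPM.

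The Ighv1 family takes up most of the part of the heavy locus far from the J segments, and the levels were therefore also summed by position. Heavy segments were split into 3 sets of 27 members. The farthest set, 1508 to 2571 kb from the J segments, was at 47.6, 40.3 and 41.2 CPM in IL-4Rα+/+ and 87.7, 53.3 and 59.8 CPM in IL-4Rα-/-, with no overlap. This set consists largely of Ighv1 members, so it is not independent of the family sum. Ighv1-64 gave 37.6 of the 87.7 CPM in IL-4Rα-/- 1. Ighv1-80 gave 16.7 of the 59.8 CPM in IL-4Rα-/- 3, and the lack of overlap depended on it. The nearest set was at 27.9, 56.4 and 46.0 CPM against 63.4, 52.6 and 42.6 CPM, and the middle set at 32.0, 69.3 and 49.5 CPM against 73.4, 106.5 and 39.3 CPM, both overlapping. All 3 sets of the kappa locus, of 25 members each, overlapped.

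Some segments are known from B-1 cells, a self-renewing B cell lineage with recurrent antibodies to phosphatidylcholine that use Ighv11-2 with Igkv14-126 or Ighv12-3 with Igkv4-91. Ighv11-2 had 25, 5 and 21 counts in IL-4Rα+/+ and 14, 7 and 28 in IL-4Rα-/-, and Igkv14-126 had 11, 25 and 28 against 11, 0 and 48. Ighv12-3 had 0, 6 and 52 counts against 1, 4 and 1, with 81.3% of its counts in IL-4Rα+/+ 3, and Igkv4-91 had 26, 31 and 24 against 186, 35 and 19. All 4 overlapped between genotypes, and they lie outside the naming rule. Of the 75-base windows of Ighv11-2, 75.2% were particular to it, and the rest were shared with Ighv11-1.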

How the data were processed

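RNA was sequenced from splenic monocytes of 6 mice, 3 of each IL-4Rα genotype. The authors isolated monocytes by negative selection, prepared directional poly(A) libraries, and aligned single-end reads of 75 bp to GRCm38 with STAR 2.6.1a, and the deposited values are raw counts of reads per gene and library. Whether counting used the strand is not given in the sources used here. Reads that STAR placed at several sites were not counted on genes. Rows of reads not assigned to a gene were left out of library sizes.

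Gene names, biotypes, exons and sequences were taken from GENCODE M21 on GRCm38, whereas the files were counted with release M23. The members and the gene lists were chosen with earlier results of these data known. CPM used TMM-normalised library sizes. The genotypes were compared in edgeR 4.0.16 (R 4.3.3) with the quasi-likelihood test after filterByExpr with a minimum count of 10, and p-values were adjusted by the Benjamini-Hochberg method over all genes tested, with a threshold of 0.15. DESeq2 1.42.0 was an alternative, and the study used DESeq2 1.22.2. No test was made on sums over members. One gene of the B cell list is not reported here and was left out of its sum.

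The named segments were the 5 highest by mean CPM of Ighv and of Igkv, every Iglv, the 10 with the smallest edgeR p, all DESeq2 calls, up to 10 with 100 or more counts of which over 60% lay in 1 library, those next to the limit of 20 counts, and the listed genes. Replicates are mice, so p-values weigh the difference between genotypes against the spread between mice, with 3 mice per genotype. In these fits the estimate of that spread also draws on other genes.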

Additional observations from a re-analysis of the deposited data

Results flagged for a closer look

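In data outside the gene counts, the share of reads that aligned to several places of the genome, which are not counted on any gene, was 8.30%, 8.32% and 8.86% in IL-4Rα+/+ and 9.19%, 9.36% and 9.03% in IL-4Rα-/-. The mean was 9.19% ± 0.165 in IL-4Rα-/- and 8.50% ± 0.316 in IL-4Rα+/+ (SD, n = 3), and every IL-4Rα-/- library was above every IL-4Rα+/+ library. How many of these reads came from V segments was not tested.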

How the results depend on the processing

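The number of V segments called was 0 with edgeR under the other scalings and filters and in the leave-one-out fits (0 to 0), 5 with DESeq2 (4 higher and 1 lower) and 7 with the independent filter of DESeq2 set for 0.1 (6 higher and 1 lower, with Ighv5-6 and Ighv14-1 added), an alternative chosen after seeing the data. At an unadjusted p under 0.05 there were 15 segments, 35 with no filter on low counts, 36 with DESeq2 under either filter setting, and 17 to 29 when 1 library was left out, of which 24, 25 and 24 without IL-4Rα+/+ 1, 2 and 3 and 29 without IL-4Rα-/- 3. The median log2 fold change was 0.28 to 0.89 when 1 library was left out. The difference in the summed level kept its direction when 1 library was left out, at 0.35 to 0.68 for heavy, 0.23 to 0.55 for kappa and 0.50 to 1.04 for lambda segments, whereas that in the effective number of heavy segments ran from −1.05 to 2.38. Leaving out 1 library turned the direction of Ighv1-26 (−0.42 to 1.83), Ighv10-1 (−0.21 to 1.41), Ighv6-3 (−0.57 to 0.10) and Igkv8-27 (−0.21 to 1.38). The labels do not say whether the replicate numbers pair the mice. Same-numbered libraries deviated from their genotype means with correlations of 0.18, −0.27 and −0.30 over 13849 genes. With 3 mice per genotype these values cannot decide whether the mice were paired. With the replicate number as a block in the fit, 0 segments were called and 17 had an unadjusted p under 0.05. The cause of these changes was not tested. Segments with a few counts per library, and those with close relatives, limit what this depth can show.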
